A study of Mus musculus with 6 samples.

Results

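Aminoacyl-tRNA synthetases join each amino acid to its transfer RNA, and 37 mouse genes for these enzymes were followed in GT1-7, a hypothalamic cell line of the mouse labelled as similar to neurons that make gonadotropin-releasing hormone (GnRH). They were 21 genes for cytosolic and 16 for mitochondrial enzymes, taken by gene symbol from the 24391 gene rows of the deposited count tables. The family was chosen by name, but with the log2 fold changes between the AVP-treated and control cultures already known, so it counts as selected on those values: the values of that contrast are given as a description, nothing is supported with them, and a member's adjusted p is printed only where a left-out library or another setting bears on its call. Of 6 cultures of wild-type cells of this 1 line, all without serum for 12 h, 3 then received arginine vasopressin (AVP), a hypothalamic peptide hormone, at 200 pg/mL for 6 h and 3 were controls. One label says that these received vehicle and another that they were untreated. No other agent or allele is named for either group, and the labels call the cultures biological replicates and give all of them 1 batch.

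A synthetase first activates its amino acid with ATP and then transfers it to the matching tRNA, and several also carry an editing site that removes a wrongly joined amino acid. The cytosol and the mitochondrion each need a full set of charged tRNAs, and most amino acids have a separate nuclear gene for each compartment, with the mitochondrial enzyme usually marked by a 2 at the end of its symbol. Gars and Kars encode enzymes that serve both compartments, Eprs joins the glutamate and the proline enzyme in 1 chain, and glutamine is charged in mammalian mitochondria by an indirect route through an amidotransferase, so Qars has no mitochondrial counterpart. Tarsl2 ends in 2 but encodes a threonyl-tRNA synthetase-like protein described outside mitochondria, and it was counted as cytosolic. Uncharged tRNA is known to activate the kinase GCN2, which raises the transcription factor ATF4, and many cytosolic synthetase genes are known ATF4 targets.

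Libraries held 34908867 to 37418318 counts, and levels are given in CPM, the count divided by the TMM-scaled library size and put on the usual scale of the unit. The 9 neuronal markers summed to 1750.0 to 1809 CPM of total counts in control and 1730.0 to 1795 in AVP libraries, but the defining gene Gnrh1 was at 0.304, 0.394 and 0.750 CPM in control and 0.299, 0.370 and 0.583 CPM in AVP libraries, so the transcript that names the line was near the limit of detection in all libraries. This near-equal sum held 1 marker that fell, Chga (log2 fold change -0.57), and 4 that rose, and Stmn2 had no count in any library but AVP replicate 3. Of 5 oligodendrocyte markers, Mog, Mag and Olig2 had 0 counts in all libraries, and the list summed to 47.3 to 52.5 CPM in control and 17.3 to 19.3 CPM in AVP libraries, nearly all of it Mbp. The 5 microglia markers summed to at most 0.193 CPM (P2ry12 at 0), the 4 astrocyte markers to 1.03 to 1.17 CPM in control and 1.68 to 2.33 CPM in AVP libraries, the 5 fibroblast markers to 20.1 to 23.8 CPM in control and 8.58 to 9.89 CPM in AVP libraries (Lum at 0), and the 3 endothelial markers to 297 to 329 and 248 to 279 CPM, nearly all of it Kdr. Each AVP library also had more genes with a count (16674 to 16739 against 16166 to 16403) and more of the nuclear RNA Malat1 (1499 to 1724 against 499 to 1106 CPM of total counts), and the part of these measures in the results was not tested. These were bulk cultures, so fewer cells with a transcript and less transcript per cell cannot be told apart.

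The synthetase genes together took 1.05 to 1.12% of all counts in the control libraries and 0.636 to 0.641% in the AVP libraries. Nearly all of that difference lay in the cytosolic enzymes, whose summed level was 10317, 9809 and 10096 CPM in replicates 1, 2 and 3 of the control and 5447, 5498 and 5549.6 CPM in those of the AVP group. The AVP mean of this sum was 54.6% of the control mean. The 16 mitochondrial enzymes summed to 1083, 824 and 777 CPM in control and 865, 839.8 and 741 CPM in AVP libraries, so the groups overlapped, and the AVP mean was 91.1% of the control mean. Much of this sum was Lars2, which was set aside after its wide spread between control cultures was seen. The mitochondrial enzymes other than Lars2 summed to 410.2, 419.9 and 429.9 CPM in control and 486, 474 and 456 CPM in AVP libraries, and the AVP mean was 112% of the control mean. The cytosolic sum thus separated the groups, and the mitochondrial sum separated them, in the opposite direction, only without Lars2.

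Of the 21 cytosolic genes, all of which passed the filter on low counts, 16 fell, 3 rose and 2 did not pass the threshold, an adjusted p under 0.05 in edgeR's quasi-likelihood test over all 14163 tested genes. Over all tested genes 28.8% fell, 28.7% rose and 57.5% did either. The median log2 fold change (AVP minus control) was -0.87 for the cytosolic genes and 0.01 for all tested genes, and single genes lay between -1.43 and 0.48. A fall of at least 2-fold was measured for 8 cytosolic genes, against 4.79% of all tested genes. Of the 16 mitochondrial genes, likewise all tested, 2 fell, 9 rose and 5 did not pass, with a median log2 fold change of 0.28 and a range from -0.47 to 0.66. The AVP and control values did not overlap for 20 cytosolic and 11 mitochondrial genes, where 63.4% of all tested genes had no overlap. In 17 of the cytosolic and 2 of the mitochondrial genes all AVP libraries lay below all control libraries, against 31.4% of all tested genes. Because the genes were picked with this contrast known, these shares are not evidence that the family stands apart.

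**Figure D1:**
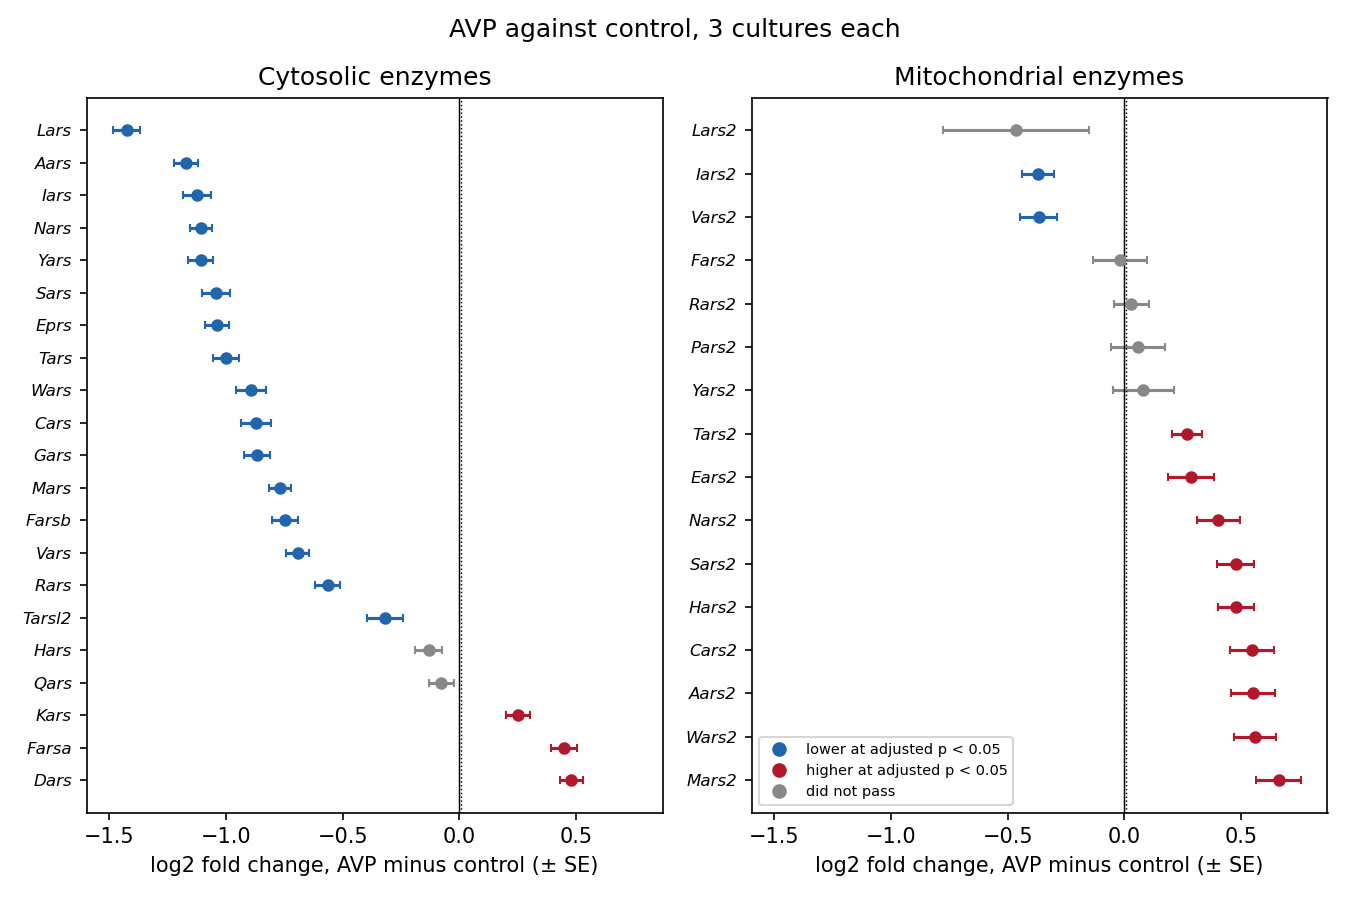
Log2 fold change, AVP minus control (x axis), of each synthetase gene (y axis), cytosolic on the left and mitochondrial on the right; points are edgeR estimates from 3 cultures a group, bars the SE, and the dotted line the median of all tested genes (0.01). Most cytosolic genes sit left of zero, down to -1.43 for Lars, while Dars, Farsa and Kars sit on the right with most mitochondrial genes, up to 0.66 for Mars2.

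Lars, the leucyl enzyme, which is also known as a leucine sensor upstream of mTORC1, had the lowest fold change of the family. Its level was 483, 486 and 519 CPM in replicates 1, 2 and 3 of the control and 170.2, 186 and 197 CPM in those of the AVP group, a fall of 2.69-fold (log2 fold change -1.43, SE 0.06). Aars, the alanyl enzyme (GRCm38 chromosome 8, 111033144 to 111057664, plus strand), was at 1287, 1195 and 1217 CPM in the control and 560.0, 557 and 523 CPM in the AVP libraries, a fall of 2.26-fold (log2 -1.17, SE 0.05). In both genes the AVP values lay within a narrow band far below the lowest control value. Iars, the isoleucyl enzyme (GRCm38 chromosome 13, 49682100 to 49734267, plus strand), fell 2.18-fold, from 619, 584 and 611 CPM in the control libraries to 292, 289 and 249.9 CPM with AVP (log2 -1.13, SE 0.06). Nars, the asparaginyl enzyme, was at 846, 824 and 836 CPM in the control and 383, 384 and 395 CPM in the AVP libraries (log2 -1.11, SE 0.05). Asparagine itself is made by Asns, whose transcript also fell, as given below. Yars, the tyrosyl enzyme (GRCm38 chromosome 4, 129189760 to 129219607, plus strand), was at 486, 442 and 457 CPM in the control and 221, 216 and 205 CPM in the AVP libraries (log2 -1.11, SE 0.05). Sars, the seryl enzyme (GRCm38 chromosome 3, 108424865 to 108445209, minus strand), which also charges the tRNA that becomes selenocysteinyl-tRNA, was at 966, 885 and 880.4 CPM in the control and 425, 419 and 482 CPM in the AVP libraries (log2 -1.04, SE 0.06). Tars, the threonyl enzyme (GRCm38 chromosome 15, 11382301 to 11399665, minus strand), was at 1006, 871 and 906 CPM in the control and 469, 471 and 451 CPM in the AVP libraries, a fall with a 95% interval from 1.85- to 2.16-fold. None of these genes had an AVP library that reached any control library.

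A smaller fall was measured for Wars, the tryptophanyl enzyme (GRCm38 chromosome 12, 108860030 to 108894174, minus strand), which is known to be induced by interferon gamma in other cells. It was at 150.1, 129 and 144 CPM in the control and 77.0, 71.9 and 78.9 CPM in the AVP libraries (log2 -0.89, SE 0.06). Cars, the cysteinyl enzyme (GRCm38 chromosome 7, 143557230 to 143600090, minus strand), was at 201, 213 and 239.7 CPM in the control and 114, 123 and 119.9 CPM in the AVP libraries (log2 -0.87, SE 0.06). Control replicate 3 was the highest Cars library and still apart from all AVP libraries. Mars, the methionyl enzyme that also charges the initiator tRNA, was at 364, 355 and 365 CPM in the control and 211, 212 and 213 CPM in the AVP libraries (log2 -0.77, SE 0.05). Its exons overlap those of Ddit3 on the other strand by 68 bases, 1.99% of its exon length in GENCODE M21. Ddit3 had a log2 fold change of -2.67, so the Mars count is uncertain to that extent if strand was not used in counting. Vars, the valyl enzyme, was at 602, 551 and 584 CPM in the control and 358, 364 and 353 CPM in the AVP libraries (log2 -0.69, SE 0.05). Rars, the arginyl enzyme, was at 260.1, 253 and 264 CPM in the control and 170.5, 170.3 and 185 CPM in the AVP libraries (log2 -0.56, SE 0.05), the smallest fall among these cytosolic genes other than Tarsl2. The threonyl-like Tarsl2 was at 60.5, 64.8 and 53.9 CPM in the control and 50.1, 49.1 and 44.5 CPM in the AVP libraries (log2 -0.32, SE 0.08), so its groups were separate but close, and its fall was no longer called when tested against a 1.2-fold change.

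Eprs, the bifunctional glutamyl-prolyl enzyme (GRCm38 chromosome 1, 185363044 to 185428360, plus strand), fell 2.06-fold, with 1119.7, 1091 and 1174 CPM in the control and 519, 554 and 574 CPM in the AVP libraries (log2 -1.04, SE 0.05). It belongs to the multisynthetase complex, in which several cytosolic enzymes are held together by non-enzymatic scaffold proteins. Of the 8 enzymes of that complex (Dars, Eprs, Iars, Kars, Lars, Mars, Qars and Rars), 5 fell, 2 rose and 1 did not pass, with a median log2 fold change of -0.67, where 28.8% of all tested genes fell and 28.7% rose. Of the 13 cytosolic genes outside it, 11 fell, 1 rose and 1 did not pass, with a median of -0.87. The scaffold genes did not move together: Aimp1 was at 164, 167 and 152 CPM in the control and 102, 101 and 113 CPM in the AVP libraries (log2 -0.62, edgeR adjusted p = 4.33e-07). Aimp2 was at 64.9, 63.4 and 65.2 CPM in the control and 83.9, 84.5 and 93.4 CPM in the AVP libraries (log2 0.44, edgeR adjusted p = 1.96e-05), and Eef1e1, which encodes the scaffold protein AIMP3, at 46.4, 49.5 and 44.3 CPM in the control and 63.8, 62.1 and 72.3 CPM in the AVP libraries (log2 0.50, edgeR adjusted p = 3.01e-05). Aimp1 thus fell and Aimp2 and Eef1e1 rose, each without overlap between the groups. Synthetases belong to 2 structurally unrelated classes, and both classes held falls: 8 of 9 class I genes fell and 0 rose (median -0.87), and 7 of 11 class II genes fell and 3 rose (median -0.75), leaving out Eprs, which holds one of each. These counts too stand beside 28.8% lower and 28.7% higher over all tested genes, in a family selected on the same values.

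Of the enzymes that serve both compartments, Gars fell and Kars rose. Gars, the glycyl enzyme (GRCm38 chromosome 6, 55038007 to 55079500, plus strand), was at 1037, 1024 and 1022 CPM in the control and 521, 570.2 and 599 CPM in the AVP libraries (log2 -0.87, SE 0.05). Kars, the lysyl enzyme (GRCm38 chromosome 8, 111993443 to 112011323, minus strand), was at 211, 209 and 197 CPM in the control and 252, 238 and 244 CPM in the AVP libraries (log2 0.25, SE 0.05), a small rise that did not pass against a fold change of 1.2. Qars, the glutaminyl enzyme (GRCm38 chromosome 9, 108507706 to 108515941, plus strand), did not pass the threshold, at 111, 118 and 114 CPM in the control and 109, 106 and 109 CPM in the AVP libraries (log2 -0.08, SE 0.05), although its highest AVP value lay just under its lowest control value. Hars, the histidyl enzyme, likewise did not pass, at 165, 181 and 179 CPM in the control and 169, 154 and 156 CPM in the AVP libraries (log2 -0.13, SE 0.06), and its groups overlapped in AVP replicate 1. Hars shares 195 exon bases, 7.97% of its exon length, with Hars2 on the other strand. Hars2 rose by 0.48 on the log2 scale, so the Hars count is uncertain to that extent if strand was not used in counting. Without control replicate 1 or AVP replicate 1 the lower Hars level passed (edgeR adjusted p = 0.0197 and 0.0294). The calls of Qars and Hars therefore leave differences of this size undecided with 3 cultures a group. Dars, the aspartyl enzyme (GRCm38 chromosome 1, 128363707 to 128417368, minus strand), had the largest rise of the cytosolic genes, at 112, 112 and 116 CPM in the control and 160.4, 156 and 158 CPM in the AVP libraries (log2 0.48, SE 0.05). Its lowest AVP library lay above its highest control library by far more than the spread within either group.

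The cytosolic phenylalanyl enzyme is built of a catalytic alpha subunit, Farsa (GRCm38 chromosome 8, 84856989 to 84869257, plus strand), and an editing beta subunit, Farsb (GRCm38 chromosome 1, 78417975 to 78488897, minus strand), and the transcripts of these subunits moved in opposite directions. Farsa was at 105, 104 and 97.2 CPM in the control and 144, 136 and 138 CPM in the AVP libraries (log2 0.45, SE 0.05). Farsb was at 124, 117 and 121 CPM in the control and 70.0, 70.0 and 75.3 CPM in the AVP libraries (log2 -0.75, SE 0.06). The ratio of Farsa to Farsb CPM within a library was 0.852, 0.889 and 0.804 in control and 2.06, 1.95 and 1.83 in AVP libraries, which is 0.848 ± 0.0424 against 1.95 ± 0.115 (SD, n = 3). This ratio was not corrected for exon length, so it does not give the proportion of the subunit transcripts. Farsb shares 248 exon bases (9.47% of its exon length) with Sgpp2 on the other strand, which rose by 0.83 on the log2 scale, and since no source used here says whether strand was used in counting, the Farsb count is uncertain to that extent.

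**Figure D2:**
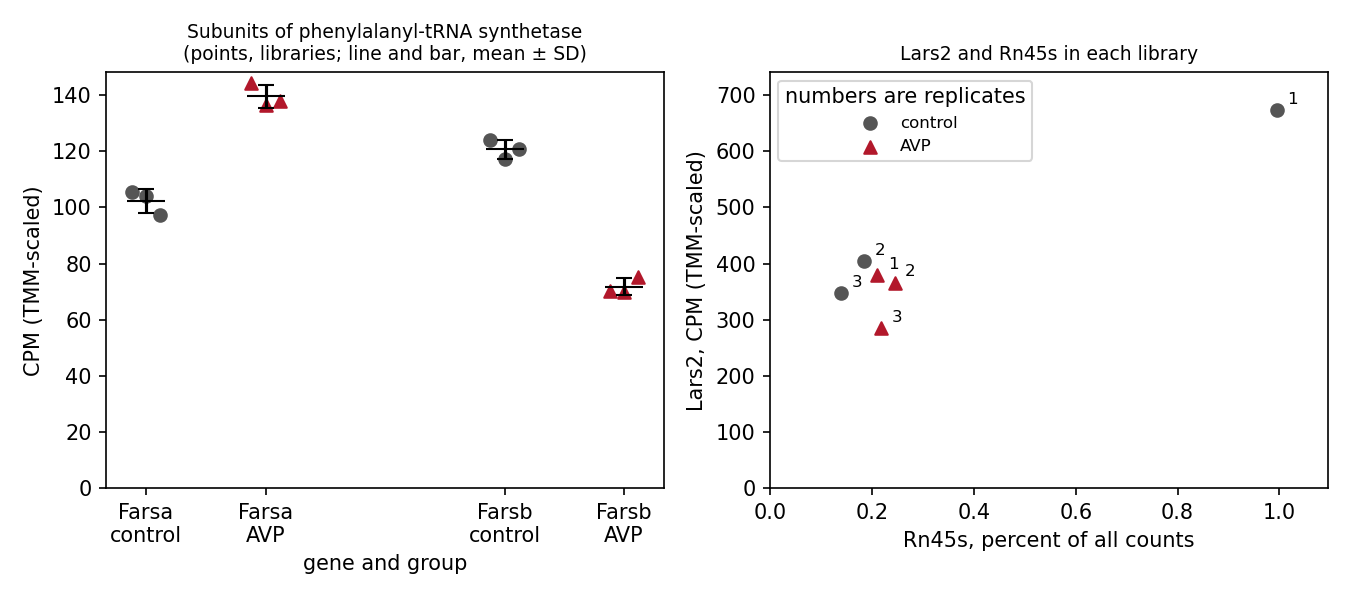
Left, TMM-scaled CPM (y axis) of the phenylalanyl-tRNA synthetase subunit genes in each library by group, with mean ± SD of 3; Farsa sits at 136 to 144 with AVP, above its control libraries, and Farsb below its own. Right, Lars2 CPM (y axis) against the percent of all counts on Rn45s (x axis) in the 6 libraries, where control replicate 1 stands apart on both axes.

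Promoter windows of the genes were searched for the letters TGATGNAA on either strand, which read TTNCATCA on the other strand and form the core of the composite element where ATF4 is known to bind with C/EBP partners. RefSeq windows (build GRCm38.p6, 250 bases before to 50 after the gene start) were used for 27 of the 37 genes, and the genes whose windows were not used here were Aars, Cars, Hars, Lars, Nars, Rars, Vars, Wars, Hars2 and Pars2. The motif was in the windows of 4 of 13 cytosolic and 0 of 14 mitochondrial genes, against 3.97% of all 32850 windows. The cytosolic genes that held it, Gars, Iars, Tars and Yars, all fell, among 9 cytosolic genes with a window that fell, and none of the 3 that rose held it. Among the windows whose symbol matched a tested gene, counted by window where the counts of synthetases are by gene, the share was 3.56% for genes that fell, 1.46% for genes that rose and 1.92% for the others. The following 30-base stretches show each match with its surroundings, 5′ to 3′ on the strand of the gene, with the matched letters in capitals.
Gars, chr6:55037960-55037989: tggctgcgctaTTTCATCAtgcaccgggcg
Iars, chr13:49682126-49682155: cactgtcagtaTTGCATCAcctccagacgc
Tars, chr15:11399655-11399684: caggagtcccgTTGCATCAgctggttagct
Yars, chr4:129189895-129189924: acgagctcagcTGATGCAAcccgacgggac
The first matched base lay 30 bases before the RefSeq start in Gars and 15 before it in Tars. In Iars and Yars it was base 8 and base 4 of the transcript. Iars and Tars hold the letters TTGCATCA, Gars holds TTTCATCA, and Yars TGATGCAA, which is the same core as TTGCATCA read on the other strand. A match is a description of letters, not a shown binding site, and a window without a match says nothing about binding.

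The 120 bases just before the RefSeq start (GRCm38.p6, 5′ to 3′ on the strand of the gene, motif in capitals) are set side by side for genes that fell with a match and for the cytosolic genes that rose, in whose windows these letters are not found.
Tars, chr15:11399659-11399778, minus strand: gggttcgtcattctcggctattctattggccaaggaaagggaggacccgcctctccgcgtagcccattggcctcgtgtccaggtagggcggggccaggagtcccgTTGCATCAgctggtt
Gars, chr6:55037881-55038000, plus strand: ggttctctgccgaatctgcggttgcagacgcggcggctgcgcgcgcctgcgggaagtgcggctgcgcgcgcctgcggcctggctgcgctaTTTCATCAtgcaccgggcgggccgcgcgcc
Dars, chr1:128417417-128417536, minus strand: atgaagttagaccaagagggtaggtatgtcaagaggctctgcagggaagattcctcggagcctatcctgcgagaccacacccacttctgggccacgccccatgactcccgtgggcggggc
Farsa, chr8:84856866-84856985, plus strand: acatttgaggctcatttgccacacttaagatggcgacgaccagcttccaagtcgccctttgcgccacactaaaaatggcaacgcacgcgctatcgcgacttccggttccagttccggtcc
Kars, chr8:112011355-112011474, minus strand: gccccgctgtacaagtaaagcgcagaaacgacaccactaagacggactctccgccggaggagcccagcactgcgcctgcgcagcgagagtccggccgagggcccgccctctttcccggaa
Gars had a log2 fold change of -0.87 and Tars a lower one, while Dars, Farsa and Kars had 0.48, 0.45 and 0.25. Sars, Eprs, Mars, Farsb and Tarsl2 also fell and held no match in their windows, so the letters did not mark every gene that fell.

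The mitochondrial enzymes moved less and mostly upward, as 9 of 16 rose, against 28.7% of all tested genes. Mars2, the mitochondrial methionyl enzyme (GRCm38 chromosome 1, 55237177 to 55248470, plus strand), had the largest rise, at 12.7, 12.7 and 13.9 CPM in the control and 20.9, 21.7 and 19.6 CPM in the AVP libraries (log2 0.66, SE 0.10). Wars2, the tryptophanyl enzyme of mitochondria (GRCm38 chromosome 3, 99141068 to 99239186, plus strand), was at 17.2, 16.5 and 15.4 CPM in the control and 23.5, 25.5 and 23.3 CPM in the AVP libraries (log2 0.56, SE 0.09). Aars2, which charges alanine in mitochondria (GRCm38 chromosome 17, 45506841 to 45520843, plus strand), was at 17.0, 18.4 and 16.8 CPM in the control and 27.4, 26.1 and 23.2 CPM in the AVP libraries (log2 0.55, SE 0.09). In these genes every AVP library lay above every control library. Cars2, the cysteinyl enzyme of mitochondria, was at 15.2, 15.1 and 14.6 CPM in the control and 22.6, 20.1 and 22.8 CPM in the AVP libraries (log2 0.55, SE 0.09). It shares 5.83% of its exon length with Naxd on the other strand. Hars2, whose gene lies head to head with Hars and shares 195 exon bases with it on the other strand, was at 34.4, 40.7 and 40.9 CPM in the control and 54.0, 52.6 and 54.9 CPM in the AVP libraries (log2 0.48, SE 0.08). These bases are 4.56% of the Hars2 exon length, and its count is uncertain to that extent. Sars2, the seryl enzyme, was at 25.3, 25.3 and 25.4 CPM in the control and 37.0, 36.4 and 32.3 CPM in the AVP libraries (log2 0.48, SE 0.08). Its control values were nearly equal, and those of Hars2 were lowest in control replicate 1. Nars2, Tars2 and Ears2 rose by 0.40, 0.27 and 0.28 on the log2 scale, all without overlap between the groups. None of these 3 rises passed against a 1.2-fold change, where 6 mitochondrial rises were left. The call of Ears2 was near the threshold and was lost without any 1 of several libraries. Its adjusted p (edgeR) was 0.0829 without control replicate 2, 0.0605 without control replicate 3, 0.0658 without AVP replicate 1 and 0.075 without AVP replicate 3. Its log2 fold change stayed between 0.25 and 0.34 as each library was left out.

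Iars2 and Vars2 went the other way. Iars2, the mitochondrial isoleucyl enzyme (GRCm38 chromosome 1, 185284726 to 185329396, minus strand), was at 76.3, 77.9 and 81.5 CPM in the control and 65.7, 61.3 and 55.5 CPM in the AVP libraries (log2 -0.37, SE 0.07). It shares 2034 exon bases, 22.9% of its exon length, with Rab3gap2 on the other strand (log2 fold change 0.08, not past the threshold), so its count is uncertain to that extent. Vars2, the valyl enzyme (GRCm38 chromosome 17, 35655634 to 35667592, minus strand), was at 42.4, 44.6 and 49.7 CPM in the control and 33.7, 34.5 and 37.8 CPM in the AVP libraries (log2 -0.37, SE 0.08). It shares 465 exon bases, 8.52% of its exon length, with Gm20483 on the other strand, so its count is likewise uncertain. Neither fall passed against a fold change of 1.2. Fars2, Pars2, Rars2 and Yars2, which charge phenylalanine, proline, arginine and tyrosine, had log2 fold changes of -0.02, 0.06, 0.03 and 0.08 with overlapping groups and did not pass. Fars2 also shares 8.72% of its exon length with Nrn1 on the other strand, which rose by 1.07 on the log2 scale. The SE of Yars2, which had 281 to 407 counts per library, was 0.13, so a change as small as those of Tars2 or Ears2 could be missed.

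**Figure D3:**
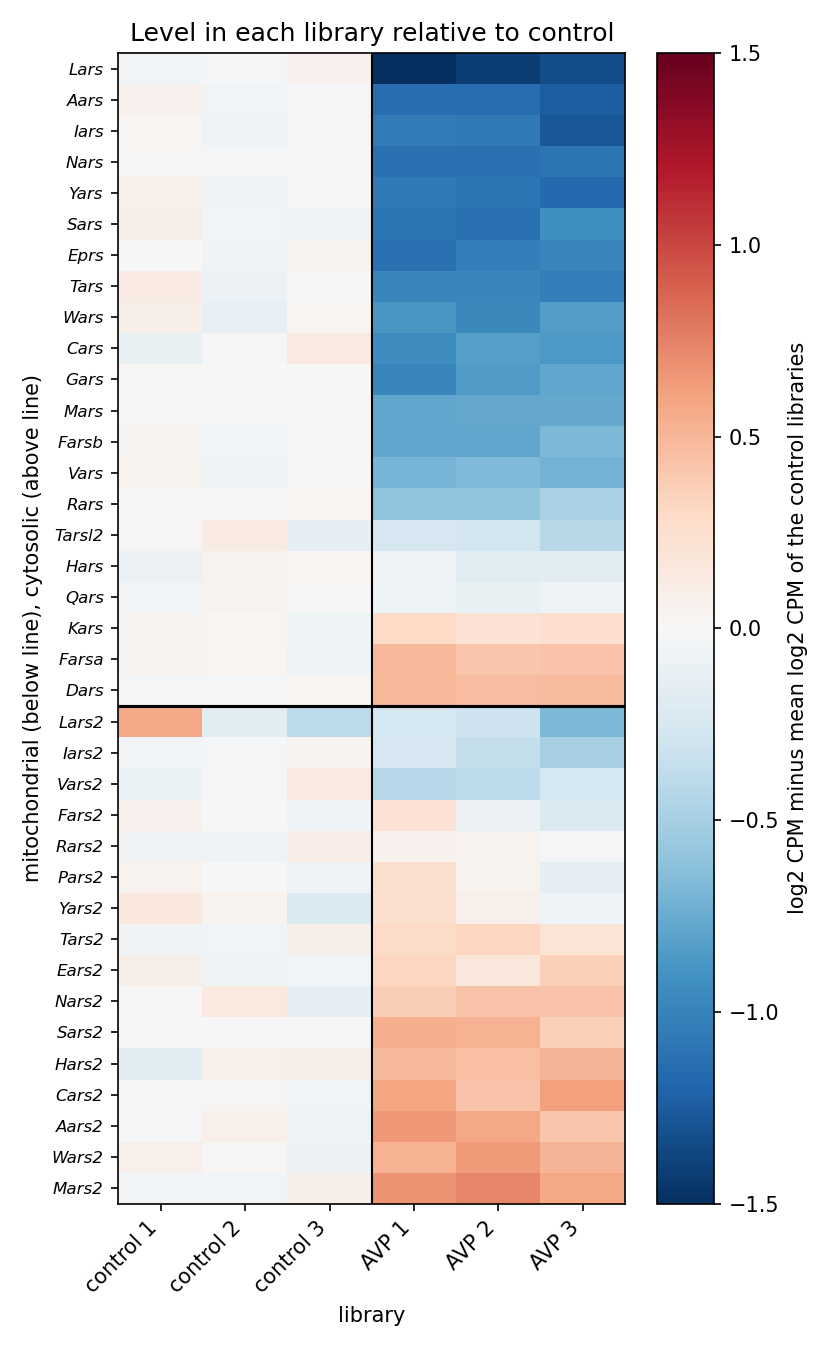
Level of each gene (rows, ordered by fold change within a compartment) in each of the 6 libraries (columns), as log2 CPM minus the mean log2 CPM of the 3 control libraries. The cytosolic rows above the black line are mostly blue in all AVP libraries, most mitochondrial rows below it are pale red, and the Lars2 row differs between control libraries.

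Lars2, the mitochondrial leucyl enzyme (GRCm38 chromosome 9, 123366927 to 123462666, plus strand), differed between cultures of the same group more than between the groups. Its level was 673, 404 and 347 CPM in replicates 1, 2 and 3 of the control and 379, 366 and 286 CPM in those of the AVP group (log2 fold change -0.47, SE 0.31). It did not pass the threshold, although it passed without robust estimation of the spread (edgeR adjusted p = 0.035). It also passed with the replicate number as a block (edgeR adjusted p = 0.0364). Control replicate 1, its highest library, also stood apart in Rn45s, the ribosomal RNA precursor, which took 0.995, 0.184 and 0.139% of counts in the control libraries and 0.211, 0.245 and 0.218% in the AVP libraries, each in the order of replicates 1, 2 and 3. Without control replicate 1 the Lars2 log2 fold change was -0.13 (edgeR adjusted p = 0.465). The part of ribosomal RNA in the Lars2 count was not tested. Per kilobase of GENCODE M21 exons Lars2 was at 42.8 CPM in control libraries, while the other mitochondrial enzymes lay between 1.16 and 12.9 CPM per kilobase.

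Enzymes for the same amino acid could be set against each other in 16 cytosolic and mitochondrial pairs, with Eprs paired with both Ears2 and Pars2 and Farsa, the catalytic subunit, with Fars2. In 8 pairs the cytosolic gene fell and the mitochondrial gene rose, in 2 both fell, and in the rest at least one did not pass. The cytosolic minus mitochondrial difference in log2 fold change had a median of -1.23 and ranged from -1.73 (Aars and Aars2) to 0.47 (Farsa and Fars2). Within a library, Aars CPM was 75.6, 64.8 and 72.4 times Aars2 CPM in control and 20.4, 21.4 and 22.6 times in AVP libraries. For Sars and Sars2 the ratio was 38.2, 35.0 and 34.7 in control and 11.5, 11.5 and 14.9 in AVP libraries. For Mars and Mars2 it was 28.6, 27.9 and 26.2 in control and 10.1, 9.74 and 10.8 in AVP libraries. The ratio was lower in all AVP than in all control libraries for 15 of the pairs, the exception being Farsa and Fars2. No share over pairs of other genes was computed to set beside this count. For Lars and Lars2 the groups were barely apart, at 0.717 in control replicate 1 and 0.689 in AVP replicate 3. The narrowest falls of the ratio were those of Vars and Vars2 (difference -0.32) and Rars and Rars2 (-0.59). Hars and Hars2 differed by -0.61, and of these genes only Hars2 passed the threshold. These ratios reuse the values that chose the family and carry no test. They were not corrected for exon length, so they can be compared between libraries but not between pairs.

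**Figure D4:**
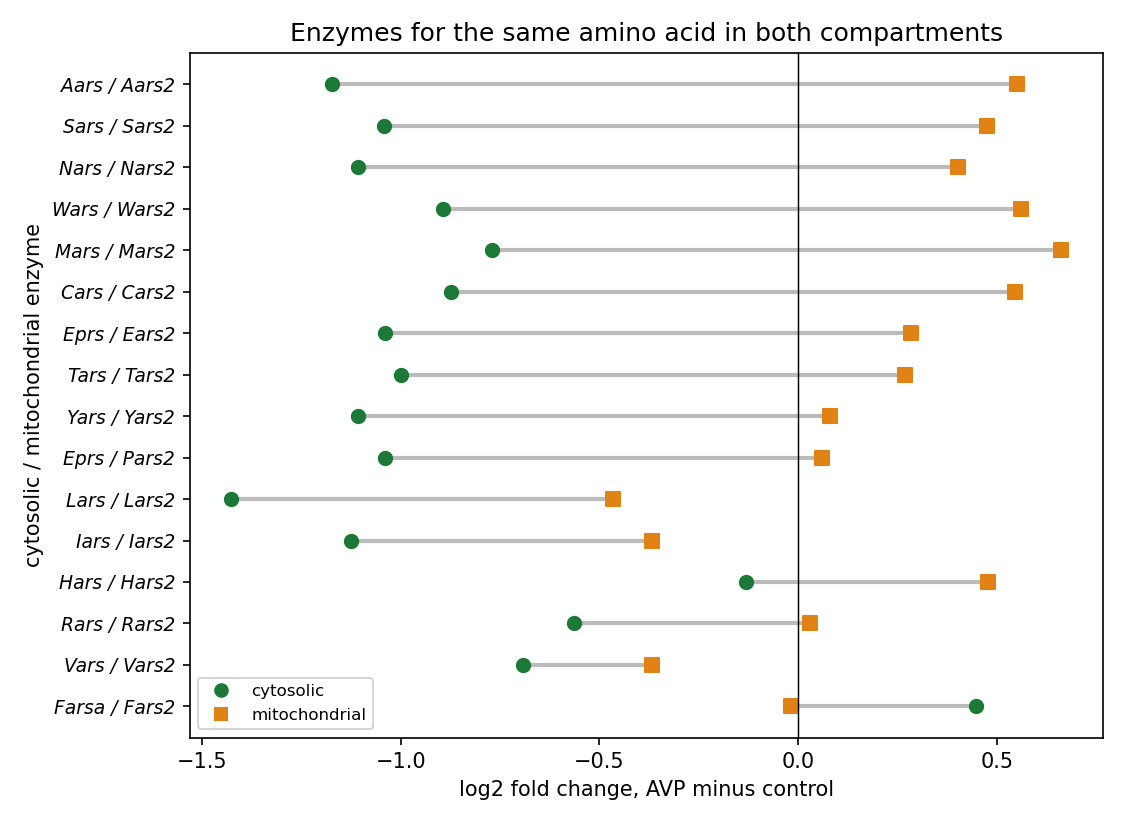
Log2 fold change, AVP minus control (x axis), of the cytosolic (green circle) and mitochondrial (orange square) enzyme for the same amino acid (y axis), ordered by their difference. The circle lies left of the square in every pair but Farsa and Fars2, with the widest gap, -1.73, for Aars and Aars2.

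The levels that follow are given as CPM per kilobase of the merged GENCODE M21 exons, which allows only an approximate comparison of genes. The merged exons take in all annotated transcripts and can be longer than a single transcript. For Aars they held 9282 bases, against 5750 in a protein-coding transcript of the gene. The ratios of paired enzymes and of Farsa to Farsb above are of CPM alone. In control libraries the cytosolic genes had a median of 77.7 CPM per kilobase, from 8.86 (Tarsl2) to 329 (Gars), and the mitochondrial genes a median of 3.83, from 1.16 (Mars2) to 42.8 (Lars2). The medians in AVP libraries were 52.5 and 4.77 CPM per kilobase. The cytosolic genes that rose or did not pass lay at 17.4 to 71.6 CPM per kilobase in control libraries, with a median of 26.0. Those that fell lay at 8.86 to 329, with a median of 97.8, so the ranges overlapped. Across the 21 cytosolic genes Spearman's rho between the control level per kilobase and the log2 fold change was -0.64. Across the 16 mitochondrial genes it was -0.57. Both are descriptions across genes, with axes that share the control libraries. Iars has a similar processed pseudogene, Gm4849, with 96.0% identity over 1656 bases of a 4396-base transcript. Aars shares 14.3% of its exon length with Exosc6 on the same strand. The counts of Iars and Aars are uncertain to the extent that shared reads were split.

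Genes that work with the synthetases moved in both directions, next to shares of 28.8% lower and 28.7% higher over all tested genes. Among genes of tRNA processing, export and indirect charging, 5 of 18 tested genes fell, 6 rose and 7 did not pass (median log2 fold change -0.06). Xpot, which exports tRNA from the nucleus, was at 202, 184 and 211 CPM in the control and 86.5, 94.8 and 99.6 CPM in the AVP libraries (log2 -1.09, edgeR adjusted p = 1.51e-09). Pop1, a protein subunit of RNase P, which trims the 5′ end of precursor tRNA, was at 54.3, 54.6 and 57.5 CPM in the control and 99.4, 93.1 and 94.4 CPM in the AVP libraries (log2 0.79, edgeR adjusted p = 2.29e-08). The Xpot fold change lay between those of Yars (-1.11) and Sars (-1.04), and that of Pop1 was above that of every synthetase gene. The subunits of the amidotransferase that makes mitochondrial glutaminyl-tRNA did not move together, as Gatc fell (log2 -0.38), Qrsl1 rose (log2 0.43) and Gatb did not pass (log2 0.21). Among genes of charging quality control and rescue, 6 of 11 tested genes fell, 2 rose and 3 did not pass (median -0.20). Gtpbp2, which acts in the rescue of stalled ribosomes, was at 184, 189.6 and 222 CPM in the control and 65.5, 61.3 and 65.9 CPM in the AVP libraries (log2 -1.63, edgeR adjusted p = 6.75e-11). Yrdc, an enzyme of the threonylcarbamoyl modification of tRNA, rose (log2 0.64), and Aarsd1, an alanyl-tRNA editing enzyme, fell (log2 -0.56).

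Partners of the mitochondrial enzymes showed small differences, again beside shares of 28.8% lower and 28.7% higher over all tested genes. Among mitochondrial translation factors, 2 of 11 tested genes fell, 5 rose and 4 did not pass (median 0.12), with Gfm1, an elongation factor, at 92.0, 96.4 and 106 CPM in the control and 139, 125 and 122 CPM in the AVP libraries (log2 0.39) and Tsfm, the nucleotide exchange factor of mitochondrial elongation factor Tu, lower (log2 -0.40). Among genes of mitochondrial tRNA modification and processing, 1 of 11 tested genes fell, 3 rose and 7 did not pass (median 0.15), and Trmt10c, a subunit of mitochondrial RNase P, rose (log2 0.32). By contrast, all 20 of 20 genes of an amino acid response list of ATF4 and its known targets fell, with a median of -1.55, a list drawn up with these results known. Its genes with the smallest p, Nupr1, Ddit3, Slc7a11 and Pck2, had log2 fold changes of -3.28, -2.67, -3.68 and -2.15. Nupr1 and Ddit3 encode stress-induced regulators of transcription, Slc7a11 a cystine transporter and Pck2 a mitochondrial carboxykinase. Atf4 was at 1084, 992 and 958 CPM in the control and 395, 368 and 349 CPM in the AVP libraries (log2 -1.45, SE 0.06). Asns, asparagine synthetase, was at 905, 876 and 831 CPM in the control and 296, 359 and 434 CPM in the AVP libraries (log2 -1.26, SE 0.13). Slc7a5, a transporter of leucine and other large amino acids, was at 1019.5, 915 and 902 CPM in the control and 419, 409 and 369 CPM in the AVP libraries (log2 -1.25, SE 0.06). The AVP libraries lay below the control libraries in all genes of this list, against 31.4% of all tested genes. Of the 18 of them with a promoter window, 7 held the motif TGATGNAA on either strand in at least 1 window. Counted by window rather than by gene, the share was 3.97% of all windows and 3.56% of those of genes that fell. The list is made of ATF4 and its known targets. The cytosolic synthetase genes that fell had a median of -0.95, nearer to zero than that of the list.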

How the data were processed

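Bulk RNA sequencing of 3 control and 3 AVP cultures of GT1-7 cells was deposited by the authors as raw counts of reads per gene, 1 table per culture, and the submitters' processing notes name the builds GRCm38 and mm10. Aligner, counter, annotation and strand setting: not given in the sources used here. Groups came from the labels. The 21 cytosolic and 16 mitochondrial genes, the other gene lists and the tests were chosen with earlier results of these data known. Genes were filtered with filterByExpr (minimum count 10), which left 14163, scaled by TMM and tested with edgeR 4.0.16 (R 4.3.3; quasi-likelihood test, robust, AVP against control, no covariate), with Benjamini-Hochberg adjustment over all of them and a threshold of 0.05. Standard errors (SE) are the absolute log2 fold change over the root of the F statistic. CPM values are TMM-scaled unless said otherwise, and errors are SD over 3 cultures. Library totals of 34908867 to 37418318 set the counting precision. Genes described culture by culture were the 10 cytosolic and 6 mitochondrial genes with the largest fold changes, those called against the median of their compartment, Gars, Kars, Qars, Eprs, Farsa, Farsb and Tarsl2, and up to 4 of each pathway list with the smallest p; Mars, Vars, Rars, Hars, Lars2, Gatb, Qrsl1, Atf4, Asns and Slc7a5 were added after their values were seen where they fell outside that rule. Exon lengths and overlaps came from GENCODE M21, promoter letters from RefSeq (1 member's window is not reported here), and similar transcripts from blastn 2.17.0 (at least 95% identity over 150 bases). The test was tried on simulated data first. Alternatives used DESeq2 1.42.0 and limma 3.58.1.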

Additional observations from a re-analysis of the deposited data

How the results depend on the processing

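None of the synthetase genes described reversed its direction among those called, under other scalings (RLE, upper quartile, library size alone), filters (none, or a mean count of at least 50), tools (DESeq2, limma-voom, limma-trend), edgeR without robust estimation, stricter thresholds, the replicate block or the loss of any 1 library. The cytosolic median log2 fold change moved from -0.87 to -0.83 with library size alone, and between -0.88 and -0.81 as each library was left out, the latter without control replicate 3 or AVP replicate 1. Against a fold change of 1.2 (glmTreat), 4529 genes passed instead of 8147, and 0 mitochondrial genes fell instead of 2, with Kars, Tarsl2, Ears2, Iars2, Nars2, Tars2 and Vars2 no longer past it. The lower Lars2 level passed without robust estimation (adjusted p = 0.035) and with the replicate block (log2 fold change -0.42, adjusted p = 0.0364), and the cause was not tested. The call of Ears2 was also lost at an adjusted p under 0.01. The labels state no pairing of replicate numbers. Deviations of same-numbered libraries correlated at 0.0787, -0.0452 and 0.0384, and those of differently numbered ones at -0.0874 to 0.0530. With so few libraries these values cannot exclude a pairing. With the block 7941 genes passed and 3 mitochondrial genes fell. Leaving out Lars2, chosen after seeing the data, gave a mitochondrial median of 0.28. Counting Tarsl2 as mitochondrial gave 15 cytosolic and 3 mitochondrial falls. Without Gars, Kars and Qars the cytosolic median was -0.88. The lower counts of most mitochondrial genes limit small differences more than those of the cytosolic genes.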
